A study of Mus musculus with 4 samples.

Results

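The 8 genes described here serve the digestion and uptake of dietary sugars in the gut epithelium. They were chosen by gene symbol as the disaccharidase genes Sis, Lct and Treh, the hexose transporter genes Slc5a1, Slc2a2 and Slc2a5, and 2 genes of sugar metabolism, Khk and G6pc. Among the 25697 probes of the arrays, 10 carried 1 of these symbols and covered 7 of the 8 genes. No probe with the symbol Lct was found in the platform annotation, so lactase was not analysed here. The 9 probes of 6 genes were detected on all 4 arrays and entered the test, and the 1 probe of Slc2a5 was detected on none. The 6 genes belong to the 8442 genes that were tested.

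Starch fragments and disaccharides are split into single sugars by enzymes anchored in the brush border of the absorptive enterocyte. Glucose and galactose then enter the cell together with sodium through SGLT1, the product of Slc5a1, and fructose enters through GLUT5, the product of Slc2a5. Hexoses leave the cell toward the blood through GLUT2, the product of Slc2a2. Fructose is also trapped inside the enterocyte by ketohexokinase, the product of Khk, and glucose-6-phosphatase, whose catalytic subunit is encoded by G6pc, releases free glucose from its phosphate. These genes belong to the mature villus enterocyte, and the dividing cells of the crypt express most of them weakly.

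RNA came from intestinal epithelial cells of C57BL/6 mice and was measured on single-colour Illumina bead arrays, with 2 arrays labelled Csnk1a1_delta_gut Ifnar1-/- and 2 labelled Ifnar1+/+ with the same gut deletion of Csnk1a1, spelled Csnk1a_delta_gut on 1 array. Both groups carried floxed Csnk1a1, the gene of casein kinase 1 alpha, and Vil1-Cre-ERT2, a Cre that the villin promoter drives in gut epithelium and that tamoxifen switches on. Both received tamoxifen at 120 mg/kg on 2 days in a row, and cells were taken 5 days after the last dose. The comparison therefore asks what the lack of Ifnar1, a chain of the type I interferon receptor, goes with in epithelium labelled as lacking Csnk1a1. By the labels, no epithelium with intact Csnk1a1 was on the arrays. The age at treatment is not given in the labels. The tissue is labelled colon, but the protocol describes mid small intestine. Sis, a gene of the small intestinal brush border, was detected on every array. Of 21 absorptive enterocyte markers with a probe, 16 were detected on all arrays, and Fabp1, Fabp2 and Maoa were detected on none. Whether the 2 samples of a group are 2 mice is not stated in the labels, so the p-values cover the spread between these samples alone, and that spread may be technical. The probes for Ifnar1 and Csnk1a1 were not well above background on any array, with raw signals of 124 and 129.6 for Ifnar1 on the Ifnar1-/- arrays against 119.3 and 135 on the Ifnar1+/+ arrays, so these probes check neither genotype. Of 14 tested interferon-stimulated genes, a list chosen with earlier results of these data known, 14 had a lower mean in the Ifnar1-/- samples (47% of all tested genes) and 10 were lower at an unadjusted p under 0.05 in limma (5.27% of all tested genes), with a median log2 difference of -1.58. Of those 10, Oas2 was detected on 0 Ifnar1-/- and 2 Ifnar1+/+ arrays, and Bst2 on 1 and 2. Oas2 thus entered the test only through the group where it is high. The Ifnar1-/- arrays were the less alike pair. Gaps of more than 1 log2 unit were found between them in 7.38% of genes, against 1.69% between the Ifnar1+/+ arrays, and results are given with and without each of them. Within the single chip, each group held neighbouring positions, so position and genotype cannot be told apart. In such bulk samples, fewer enterocytes and less RNA per enterocyte cannot be told apart either.

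Upstream sequence is shown for 3 genes whose values were lower on both Ifnar1-/- arrays, and for G6pc, whose arrays did not separate by genotype. Each line holds the 250 bases before the annotated start, read 5′ to 3′ on the gene's strand, from RefSeq with the GRCm38.p6 build. All 8 genes had an entry there. Capitals mark matches on either strand to the letters of 7 motifs: an HNF1 half-site (GTTAAT), an HNF4 site (CAAAGTC), a CDX site (TTTATTG), the GATA factor site (AGATAA), a core of the interferon-stimulated response element (GAAANNGAA), an E-box (CACGTG) and the TATA box (TATAAA).
Sis, minus strand, chr3:72967864-72968113: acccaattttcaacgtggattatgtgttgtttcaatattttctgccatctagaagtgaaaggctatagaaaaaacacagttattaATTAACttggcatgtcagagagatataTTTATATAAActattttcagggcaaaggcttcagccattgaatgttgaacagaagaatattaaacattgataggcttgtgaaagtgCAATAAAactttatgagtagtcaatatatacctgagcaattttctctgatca
Slc5a1, plus strand, chr5:33103969-33104218: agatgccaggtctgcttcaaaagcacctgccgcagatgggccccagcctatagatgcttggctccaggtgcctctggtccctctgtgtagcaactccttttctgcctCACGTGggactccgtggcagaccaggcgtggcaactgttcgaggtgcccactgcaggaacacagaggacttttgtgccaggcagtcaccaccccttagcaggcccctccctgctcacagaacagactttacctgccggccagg
Slc2a2, plus strand, chr3:28697653-28697902: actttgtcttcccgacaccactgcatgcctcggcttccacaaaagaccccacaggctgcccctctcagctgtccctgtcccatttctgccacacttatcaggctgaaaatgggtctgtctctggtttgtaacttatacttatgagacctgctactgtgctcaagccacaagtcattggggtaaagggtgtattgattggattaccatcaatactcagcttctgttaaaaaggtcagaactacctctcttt
G6pc, plus strand, chr11:101367466-101367715: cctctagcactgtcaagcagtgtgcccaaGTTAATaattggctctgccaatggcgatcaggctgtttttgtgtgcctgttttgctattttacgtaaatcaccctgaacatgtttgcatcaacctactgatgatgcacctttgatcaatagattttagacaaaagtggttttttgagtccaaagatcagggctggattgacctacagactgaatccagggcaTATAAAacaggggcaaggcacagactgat

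The Sis stretch held the CDX letters 52 bases before the start and the HNF1 half-site 165 bases before it, both on the opposite strand. It also held 2 overlapping TATA matches, at 138 and 134 bases before the start. CDX and HNF1 factors are known regulators of the sucrase-isomaltase promoter. Of 32851 promoter windows of the same length in the table, 4.2% held the CDX letters and 6.43% the HNF1 half-site. The Slc5a1 stretch held 1 E-box, found in 6.02% of windows, and the Slc2a2 stretch held none of the 7 motifs. The G6pc stretch held an HNF1 half-site 221 bases and a TATA box 29 bases before the start, and 12.4% of windows held a TATA box. Of the genes not printed, Khk held an HNF1 half-site and an E-box in a window that overlaps its own annotated gene, Treh held 2 HNF4 matches, Lct held 2 GATA matches and Slc2a5 held none. The HNF4 letters were in 3.84% of windows and the GATA letters in 9.99%. The letters of the interferon-stimulated response element were in 7.13% of windows and, among the 8 genes, in that of Treh. These matches are descriptions of letters, and binding was not measured.

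Of the 6 tested sugar genes, 4 had lower values on both Ifnar1-/- arrays than on either Ifnar1+/+ array. Sis, Slc5a1, Slc2a2 and Khk were 1.73-fold, 1.61-fold, 1.83-fold and 1.68-fold lower in the mean, Treh had a lower mean with overlapping groups, and G6pc showed no separation. None of these differences passed after adjustment over all genes. In limma, 0 of the 6 had an adjusted p under 0.05, nor did any of the 8442 genes (0%), the lowest adjusted p being 0.29. At an unadjusted p under 0.05, 4 of the 6 were lower and 0 higher, where 5.27% of all tested genes were lower and 4.25% higher. Groups that did not overlap, with the Ifnar1-/- arrays lower, were found for the same 4 of 6 genes and for 19.5% of all tested genes. The median log2 difference of the 6 genes was -0.72, Ifnar1-/- minus Ifnar1+/+, against 0.03 over all genes. Of the 6, 5 had a lower mean, as had 47% of all genes. The sugar genes were chosen with earlier results of these data known, so these shares do not test them as a set. The count of 4 at an unadjusted p under 0.05 was 2 with median scaling, where 298 of the 8442 genes were lower at that p. Leaving out Ifnar1-/- array 1 or either Ifnar1+/+ array removed all of these calls, and the count rose without Ifnar1-/- array 2. Such calls over all genes also rose without Ifnar1-/- array 2 and fell without either Ifnar1+/+ array. Without Ifnar1-/- array 1 they stayed near the reported number. Leaving out Ifnar1-/- array 1 gave a median of -0.46, and leaving out array 2 of that group gave -1.02.

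**Figure D1:**
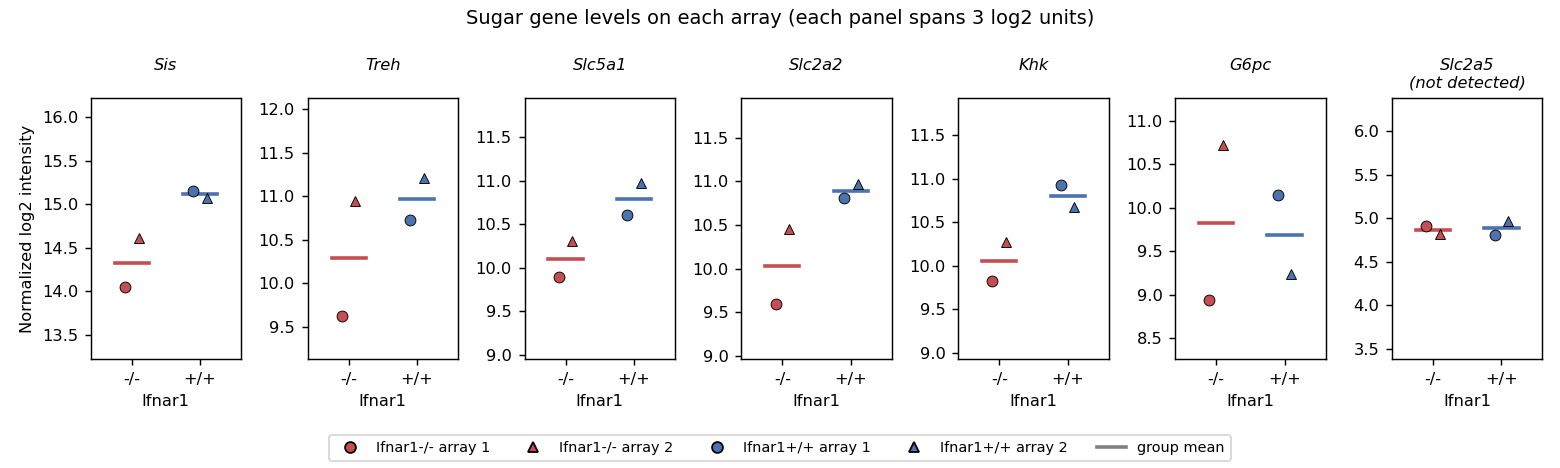
Normalized log2 intensity (vertical axes, each spanning 3 log2 units) of 7 sugar genes on the 2 Ifnar1-/- arrays (red, left) and the 2 Ifnar1+/+ arrays (blue, right), with circles for array 1, triangles for array 2 and lines for group means. Sis, Slc5a1, Slc2a2 and Khk lie lower on both Ifnar1-/- arrays than on either Ifnar1+/+ array, Treh and G6pc overlap, and Slc2a5 lies near 4.9 on every array, where it is not detected.

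Among the disaccharidase genes, Sis encodes sucrase-isomaltase, the enzyme that splits sucrose and the short branched fragments of starch. Its raw signals were 19923 and 22956 on the Ifnar1-/- arrays, against 35592 and 30715 on the Ifnar1+/+ arrays. On the normalized log2 scale they were 14.04 and 14.61 on the Ifnar1-/- arrays, against 15.15 and 15.07 on the Ifnar1+/+ arrays. Both Ifnar1-/- arrays were low and the groups did not overlap. The means were 14.33 ± 0.40 and 15.11 ± 0.06 (SD, n = 2 each), a level 1.73-fold lower in the Ifnar1-/- samples. The log2 difference was -0.79 ± 0.27 (SE), with a 95% interval of -1.43 to -0.14 and an adjusted p = 0.50 in limma. The deposited normalized intensities, which the authors scaled by a method not given in the sources used here, were 17008 and 25082 on the Ifnar1-/- arrays, against 36583 and 34542 on the Ifnar1+/+ arrays. They kept the same order of groups, but they come from the same signals and are not a separate check. The log2 difference of Sis was -0.78 with them and -0.78 in the alternative without background correction.

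Treh encodes trehalase, which splits the mushroom and insect sugar trehalose. Its log2 intensities were 9.62 and 10.95 on the Ifnar1-/- arrays, against 10.73 and 11.21 on the Ifnar1+/+ arrays. Only Ifnar1-/- array 1 was low among these 4 values. Ifnar1-/- array 2 lay between the Ifnar1+/+ arrays, so the groups overlapped. The log2 difference was -0.68 ± 0.45 (SE; adjusted p = 0.62 in limma), with an interval of -1.76 to 0.39. It was -0.02 without Ifnar1-/- array 1. The gap between the Ifnar1-/- arrays was -1.33 log2 units for Treh, array 1 minus array 2, and 3.17% of tested genes had a gap at least as large.

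Of the transporter genes, Slc5a1 encodes SGLT1, the apical cotransporter that carries glucose and galactose into the cell. Its log2 intensities were 9.90 and 10.31 on the Ifnar1-/- arrays, against 10.61 and 10.98 on the Ifnar1+/+ arrays. The groups did not overlap, but the higher Ifnar1-/- value and the lower Ifnar1+/+ value lay close together. The means were 10.10 ± 0.29 and 10.79 ± 0.26 (SD, n = 2 each), 1.61-fold lower in the Ifnar1-/- samples. The log2 difference was -0.69 ± 0.27 (SE), with an interval of -1.33 to -0.05 and an adjusted p = 0.51 in limma.

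Slc2a2 encodes GLUT2, the carrier through which hexoses leave toward the blood. Its brightest probe read 9.59 and 10.45 on the Ifnar1-/- arrays, against 10.81 and 10.97 on the Ifnar1+/+ arrays (log2). Both Ifnar1-/- arrays were low, array 1 further than array 2. The means were 10.02 ± 0.61 and 10.89 ± 0.12 (SD, n = 2 each), 1.83-fold lower in the Ifnar1-/- samples. The log2 difference was -0.87 ± 0.33 (SE), with an interval of -1.65 to -0.09 and an adjusted p = 0.51 in limma. The other probes of Slc2a2 read 7.58 and 8.84 on the Ifnar1-/- arrays, against 9.43 and 9.45 on the Ifnar1+/+ arrays, and 6.94 and 7.95 against 8.56 and 8.85 in the same order of groups. All 3 probes were lower on both Ifnar1-/- arrays and lowest on array 1. Their log2 differences were -0.87, -1.23 and -1.27, and the mean of the 3 probes differed by -1.12, so the probe chosen as the brightest gave the smallest size. The 3 probes read the same RNA on the same arrays and are not replicates.

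Slc2a5 encodes GLUT5, the apical fructose carrier. Its probe had raw signals of 150.5 and 140 on the Ifnar1-/- arrays, against 133.9 and 139.5 on the Ifnar1+/+ arrays. The detection p-values ran from 0.18 to 0.32, so the probe was not well above background on any array and no fold is given. Probes of genes that nearly all cells use were also undetected on every array, among them Pgk1 and Hk1 of glycolysis, so the reading of this 1 probe does not show that Slc2a5 was silent.

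**Figure D2:**
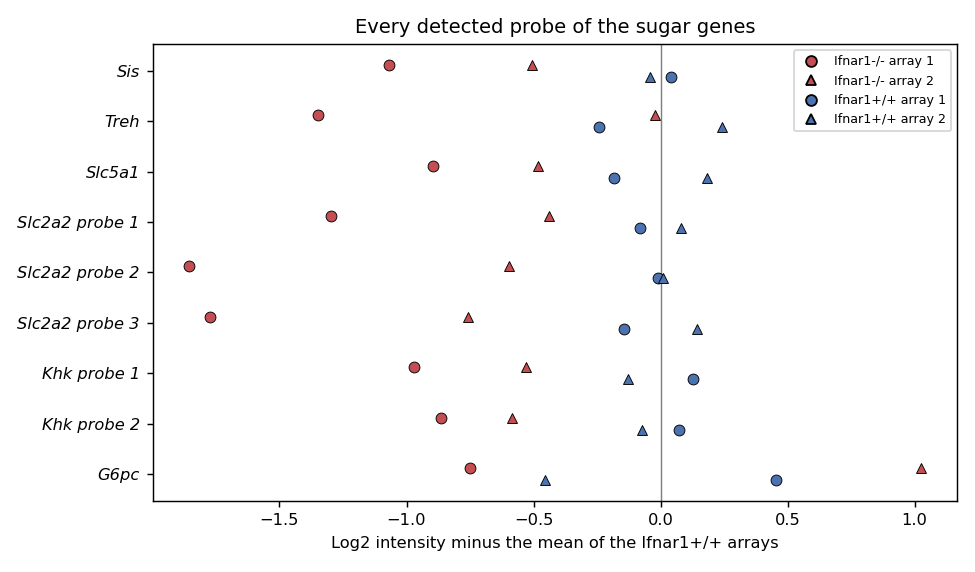
Log2 intensity of each of the 9 detected probes minus the mean of the Ifnar1+/+ arrays (horizontal axis), by array, with Ifnar1-/- arrays in red and Ifnar1+/+ arrays in blue. The 3 Slc2a2 probes and the 2 Khk probes lie below 0 on both Ifnar1-/- arrays, and G6pc lies at 1.02 on Ifnar1-/- array 2 and at -0.75 on array 1.

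In sugar metabolism, Khk encodes ketohexokinase, which phosphorylates fructose. Its brighter probe read 9.83 and 10.27 on the Ifnar1-/- arrays, against 10.93 and 10.67 on the Ifnar1+/+ arrays (log2), with no overlap. The means were 10.05 ± 0.31 and 10.80 ± 0.18 (SD, n = 2 each), 1.68-fold lower in the Ifnar1-/- samples. The log2 difference was -0.75 ± 0.26 (SE), with an interval of -1.37 to -0.13 and an adjusted p = 0.50 in limma. The other probe of Khk read 8.89 and 9.17 on the Ifnar1-/- arrays, against 9.83 and 9.68 on the Ifnar1+/+ arrays, a difference of -0.72. The 2 probes thus gave nearly the same size.

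G6pc encodes the catalytic subunit of glucose-6-phosphatase. Its log2 intensities were 8.94 and 10.72 on the Ifnar1-/- arrays, against 10.15 and 9.24 on the Ifnar1+/+ arrays. Each group held 1 high and 1 low array, and the highest and the lowest value of all 4 were both Ifnar1-/-. The log2 difference was 0.14 ± 0.59 (SE; adjusted p = 0.95 in limma), with an interval of -1.28 to 1.56 that spans the sizes seen for the other genes in both directions. The gap between the Ifnar1-/- arrays was -1.77 log2 units, array 1 minus array 2, and 0.971% of tested genes had a gap at least as large. The gap between the Ifnar1+/+ arrays was 0.91, and 2.32% of tested genes had one as large. The difference was 1.02 without Ifnar1-/- array 1, -0.75 without Ifnar1-/- array 2 and -0.32 without Ifnar1+/+ array 2, so 1 array decides its direction.

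The lower values on the Ifnar1-/- arrays were unequal between those arrays. Relative to the mean of the Ifnar1+/+ arrays, Sis was at -1.07 on Ifnar1-/- array 1 and -0.51 on array 2 (log2). Slc5a1 was at -0.90 and -0.48, Slc2a2 at -1.30 and -0.44, and Khk at -0.97 and -0.53 on the same arrays in the same order. These 4 genes were thus lower on both arrays, and array 2 alone placed them at -0.44 to -0.53. Treh was at -1.35 on array 1 and -0.02 on array 2, and G6pc at -0.75 and 1.02. All 6 tested genes lay below the Ifnar1+/+ mean on array 1.

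**Figure D3:**
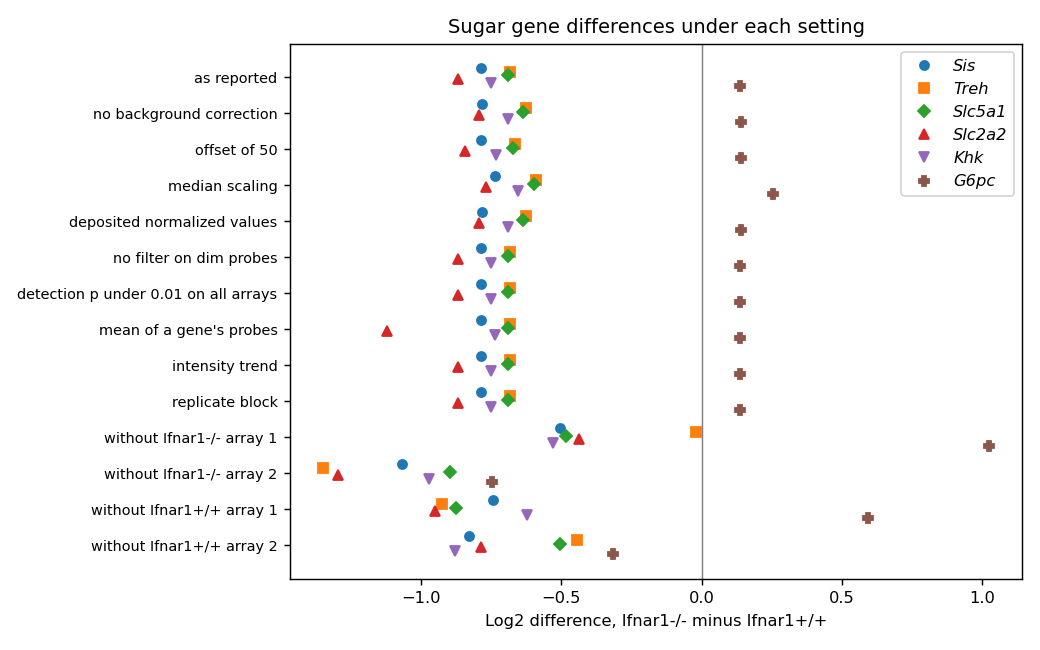
Log2 difference, Ifnar1-/- minus Ifnar1+/+ (horizontal axis), of the 6 tested sugar genes as reported, under 9 other ways of processing and with each array left out. Sis, Slc5a1, Slc2a2 and Khk stay between -1.30 and -0.44 in every row, Treh reaches -0.02 without Ifnar1-/- array 1, and G6pc lies on both sides of 0.

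Other genes of sugar handling were taken from lists chosen by function, with earlier results of these data known. Of 9 tested hexose transporter genes outside the members, 7 had a lower mean, with a median log2 difference of -0.48, and 2 had an unadjusted p under 0.05 in limma, both lower, beside 47% of all tested genes with a lower mean and 5.27% lower at that p. Slc2a6, a carrier of the same family as GLUT2, read 5.60 and 5.43 on the Ifnar1-/- arrays, against 6.40 and 6.42 on the Ifnar1+/+ arrays, with a difference of -0.90 ± 0.22 (SE; adjusted p = 0.46 in limma). Slc5a11, a sodium-coupled carrier of inositol, read 5.81 and 7.43, against 8.44 and 8.02, with a difference of -1.61 ± 0.51. Slc5a9, a sodium-coupled mannose carrier also known as SGLT4, differed by -1.03 ± 0.55, with Ifnar1-/- array 2 between the Ifnar1+/+ arrays. By array, the list had a median of -0.62 on the first Ifnar1-/- array and of -0.12 on the second, and its median difference was -0.20 when each gene's probes were averaged. It was -0.23 without background correction or with the authors' normalized values. Slc2a10 had probes that disagreed in direction, at -0.48 and 0.08.

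SGLT1 depends on the sodium gradient that the sodium-potassium pump keeps up. Atp1b1, a beta subunit of that pump, read 14.41 and 14.85 on the Ifnar1-/- arrays, against 15.24 and 15.24 on the Ifnar1+/+ arrays, a difference of -0.61 ± 0.25 (SE; adjusted p = 0.52 in limma). Atp1b3, another beta subunit, differed by 0.41 ± 0.22 in the other direction, with no overlap between groups. Slc9a3r1, a scaffold protein of the brush border also called NHERF1, differed by -0.72 ± 0.25. Of the 5 tested genes of this list 4 had a lower mean, as had 47% of all tested genes. An unadjusted p under 0.05 in limma was found for 2 of them, both lower, where 5.27% of all tested genes were lower. The median of -0.61 became 0.00 without Ifnar1-/- array 1.

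Downstream of ketohexokinase, fructose carbon passes through triokinase and other enzymes into glycolysis. Tkfc, the triokinase gene, read 11.22 and 12.08 on the Ifnar1-/- arrays, against 12.61 and 12.37 on the Ifnar1+/+ arrays, a difference of -0.84 ± 0.33 (SE; adjusted p = 0.51 in limma). Galm, which interconverts the 2 ring forms of galactose, differed by -0.59 ± 0.25, and Fbp1, a gluconeogenic phosphatase gene, by -0.04 ± 0.25. The 5 tested genes of fructose and galactose metabolism had a median of -0.04, which was 0.06 with median scaling and -0.46 when the probes of a gene were averaged. Leaving out an array gave -0.19 and -0.09 for Ifnar1-/- arrays 1 and 2, and -0.01 and -0.26 for Ifnar1+/+ arrays 1 and 2. The gene of this list with several probes was Galt, the galactose-1-phosphate uridylyltransferase gene, whose probes differed between the groups by 0.00 and -0.92.

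In glycolysis, 9 of 13 tested genes had a lower mean and 4 a higher one, where 47% of all tested genes had a lower mean. The median of -0.19 was -0.29 without Ifnar1-/- array 1, -0.12 without array 2 of that group, -0.10 without Ifnar1+/+ array 2 and -0.09 with no filter on dim probes. Pklr, the pyruvate kinase gene of liver and gut, read 6.60 and 7.49 on the Ifnar1-/- arrays, against 8.20 and 8.12 on the Ifnar1+/+ arrays, a difference of -1.11 ± 0.33 (SE; adjusted p = 0.49 in limma). Its other probe differed by -0.71. Pfkp, a phosphofructokinase gene, differed by -0.74 ± 0.28, and Pkm, the more widely used pyruvate kinase gene, by -0.42 ± 0.22.

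Genes of glucose production and sugar sensing had medians near 0 as reported, which moved with the processing and the arrays used. The 7 tested genes of gluconeogenesis and glucose-6-phosphate export had a median of -0.08, which was 0.04 with median scaling and, by the array left out, -0.16 and -0.43 without Ifnar1-/- arrays 1 and 2 and 0.07 and -0.26 without Ifnar1+/+ arrays 1 and 2. Ppargc1a, a coactivator of gluconeogenic and mitochondrial genes, differed by -0.64 ± 0.28 (SE; adjusted p = 0.52 in limma), Slc37a1 by -0.46 ± 0.23 and Pck1, the gene of the enzyme that makes phosphoenolpyruvate, by -0.29 ± 0.23. The 6 tested sugar sensing genes were 3 lower and 3 higher, with a median of -0.02 that was 0.07 with median scaling and 0.28 with the filter at a detection p under 0.01 on all arrays. It lay between -0.08 and -0.0014 with an array left out. Mlx, the partner of the sugar-responsive factor ChREBP, differed by -0.60 ± 0.29, Klf10 by 0.51 ± 0.27 and the sweet taste receptor gene Tas1r3 by -0.44 ± 0.34. Tas1r3 was detected on only 1 Ifnar1-/- array, so its difference rests partly on a background reading. The 3 tested hydrolase genes outside the brush border, Ganab, Gaa and Glb1, differed by -0.25 ± 0.26, 0.12 ± 0.22 and -0.09 ± 0.22, and Mgam, the maltase-glucoamylase gene, had no probe with that symbol in the annotation used here.

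**Figure D4:**
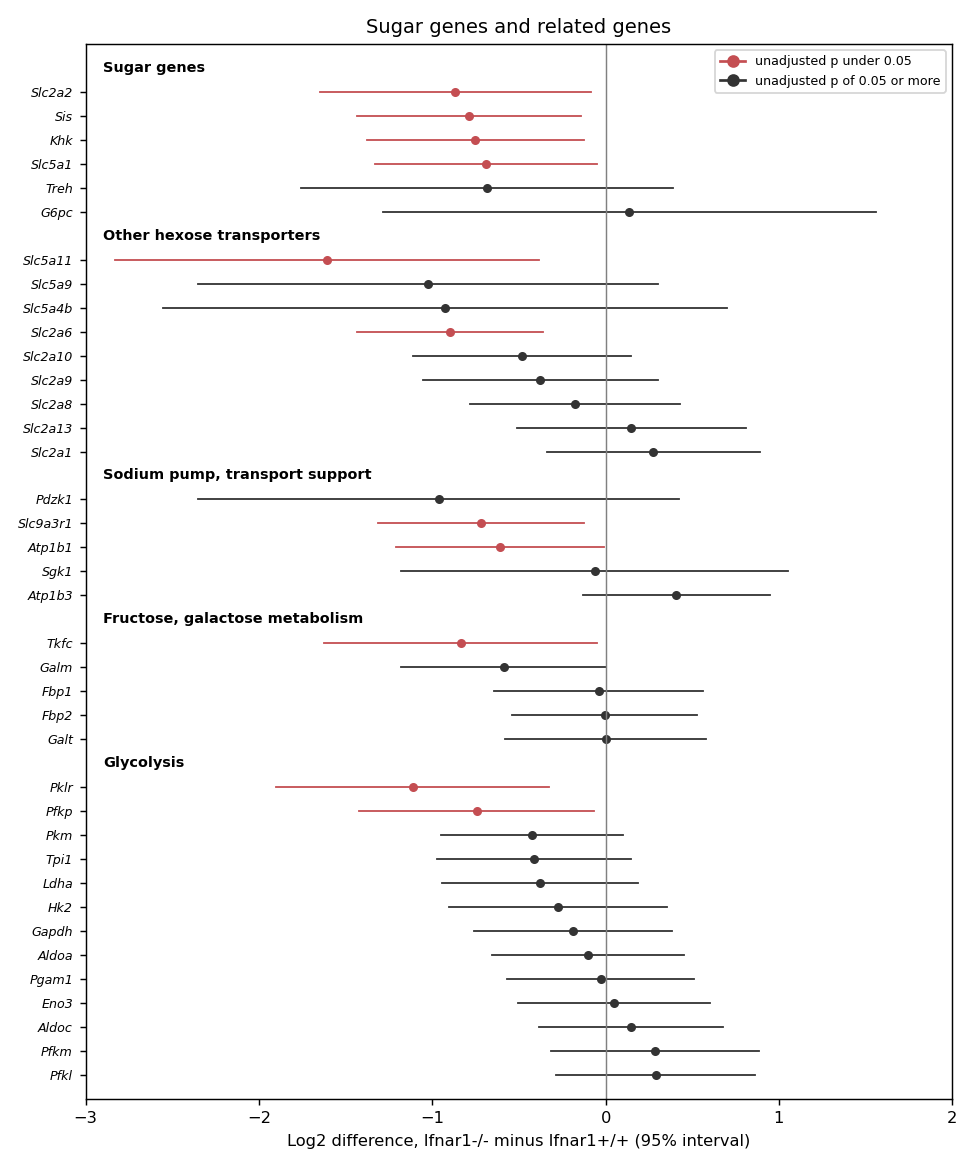
Log2 difference, Ifnar1-/- minus Ifnar1+/+ (horizontal axis), with its 95% interval from limma, for the 6 tested sugar genes and for related genes grouped by function. Red marks an unadjusted p under 0.05, all of them in the lower direction, and no gene passed after adjustment over the 8442 genes.

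Among 9 tested transcription factors of intestinal differentiation, 0 had an unadjusted p under 0.05 in limma. Over all tested genes, 5.27% were lower and 4.25% higher at that p, so this count does not show that the factors were unchanged. The median of -0.19 was -0.00073 without Ifnar1-/- array 1, -0.32 without Ifnar1-/- array 2, and 0.06, in the other direction, with the stricter detection filter. Hnf4g, a nuclear receptor of the enterocyte, differed by -0.62 ± 0.39 (SE; adjusted p = 0.62), Creb3l3 by -0.41 ± 0.32 and Pdx1, a factor of the duodenum and pancreas, by -0.52 ± 0.43. For each of these 3 genes, Ifnar1-/- array 2 lay within or above the range of the Ifnar1+/+ arrays. Hnf4g and Pdx1 were detected on only 1 Ifnar1-/- array, so their differences rest partly on a background reading.

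Markers of absorptive enterocytes outside the sugar genes also had mostly lower means. Of 18 tested markers, 17 had a lower mean and 8 an unadjusted p under 0.05, all lower, with a median of -0.80. Ace, 1 of the 8, was detected on 0 Ifnar1-/- and 2 Ifnar1+/+ arrays, and Enpep on 1 and 2. Ace thus entered the test only through the group where it is high. The median was also -0.80 with the filter at a detection p under 0.01 on all arrays. Over all tested genes, 47% had a lower mean and 5.27% were lower at that p. Relative to the Ifnar1+/+ mean, these markers had a median of -1.32 on the first Ifnar1-/- array and -0.24 on the second, and the 6 sugar genes one of -1.02 on the first and -0.46 on the second. The median of the sugar genes was thus higher than that of the other markers on the first array and lower on the second, and the difference between the lists was not tested. Markers of other cells on the same arrays also differed. Proliferation markers of the crypt had a higher mean in 12 of 12 cases, as had 53% of all tested genes, and their medians were 0.87 and 0.32 on the Ifnar1-/- arrays. Paneth cell markers lay at 2.04 and -0.04 there, goblet cell markers at 0.13 and -0.74, and enteroendocrine markers at -0.39 and -0.26. T cell markers were at -1.65 and -1.01, fibroblast and smooth muscle markers at -1.13 and -1.49, with Cd8a, Ptprc and Tagln among those detected on no array. The T cell list had 6 of 13 markers with a probe tested and the fibroblast list 7 of 13. Cd3d and Vim were detected on 0 Ifnar1-/- and 2 Ifnar1+/+ arrays, and Cd3g, Sparc and Col6a2 on 1 and 2. Cd3d and Vim thus entered the test only through the group where they are high. The low medians of these lists are therefore partly built in and rest partly on background readings. On the Ifnar1+/+ arrays the fibroblast list was itself unequal, at 0.83 and -0.83, while the other lists named here lay between -0.13 and 0.13. The part of these cells in the sugar gene values was not tested.

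**Figure D5:**
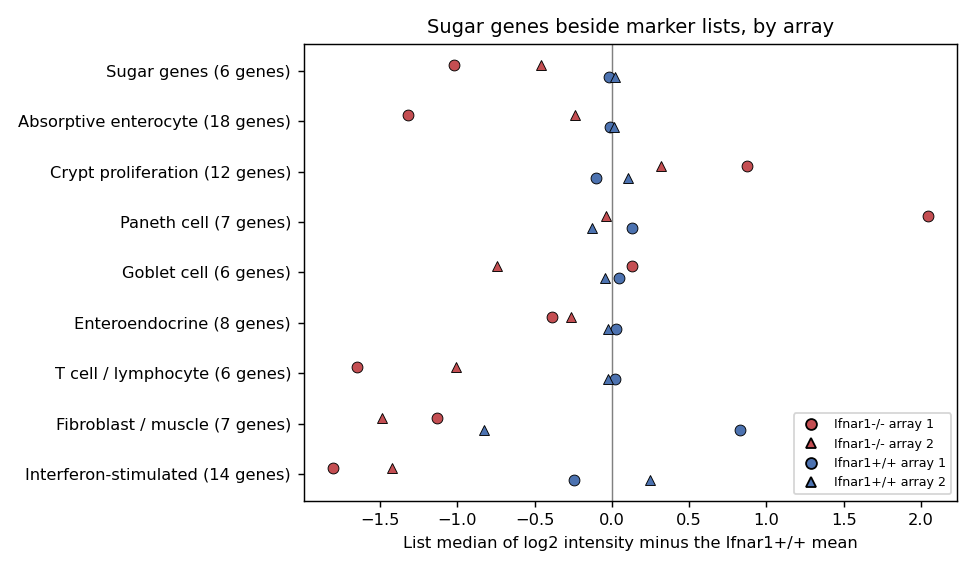
Median over the tested genes of each list of log2 intensity minus the Ifnar1+/+ mean (horizontal axis), by array, with Ifnar1-/- arrays in red and Ifnar1+/+ arrays in blue. The sugar genes lie at -1.02 and -0.46 on the Ifnar1-/- arrays, beside -1.32 and -0.24 for the other absorptive enterocyte markers and 0.87 and 0.32 for crypt proliferation markers.

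Across the 4 arrays, the median centred profile of the 6 sugar genes was -0.75 and -0.06 on the Ifnar1-/- arrays, against 0.37 and 0.43 on the Ifnar1+/+ arrays. Sis and Slc2a2 followed it most closely, at Euclidean distances of 0.14 and 0.15 log2 units, and G6pc least, at 1.40. The other genes of the array with the most similar profile over these 4 arrays were Drc3 (distance 0.03), Ddhd1 (0.04), Olfr352 (0.07), Sgk2 (0.07) and Tmem120a (0.09). With 4 arrays many genes share such a profile by their order alone, and likeness is given as a description.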

How the data were processed

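Gene expression was measured on 4 Illumina bead arrays of 1 chip, 2 per group. Per the submitters' processing notes, signals were exported with GenomeStudio 1.8. The deposited raw intensity values are mean bead signals per probe, neither background subtracted nor scaled between arrays. The deposited detection p-value of each probe compares its signal with the negative controls of its array. The authors' normalized intensity values are linear; how they were scaled: not given in the sources used here.

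Starting from the raw values, intensities were background corrected through the detection p-values, then quantile normalized to a log2 scale by the neqc function (limma 3.58.1, R 4.3.3), with an offset of 16 that pulls dim genes toward no difference. A probe was kept (11884 of 25697) where its detection p was under 0.05 on 2 or more arrays, and the brightest probe stood for each gene. Symbols came from the platform annotation, in which 23978 probes had 1 symbol, 1719 had none and 0 had several. Of these, 23962 were found in RefSeq, and 0 symbols differed. Differences are Ifnar1-/- minus Ifnar1+/+, tested two-sided across all 8442 genes with lmFit and eBayes, without covariates and with 2 residual degrees of freedom, with Benjamini-Hochberg adjustment over all genes. Precision is limited by the number of arrays. The fit was run on simulated data as a check of the code. No power for changes of the size seen in the sugar genes is taken from that run.

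Groups and replicate numbers came from the sample titles, since the protocol writes Ifnar1+/+ for both crosses. The sugar genes and the lists were chosen with earlier results of these data known. Named genes are all 8 sugar genes, the targeted genes, the 3 genes of each sugar-related list with the smallest p, and the 5 nearest profiles. Genes named beyond this rule were chosen after their values were seen. Lists are described by counts and medians, without a list test. Alternatives were the replicate number as a block, the mean of a gene's probes, median scaling, an intensity trend, an offset of 50, no background correction, the authors' normalized values, a stricter probe filter (p under 0.01 on all arrays), no filter, and each array left out with the normalization of all 4 kept. Figures were drawn with matplotlib 3.10.9.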

Additional observations from a re-analysis of the deposited data

How the results depend on the processing

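Sis, Slc5a1, Slc2a2, Khk and Treh kept a lower mean in the Ifnar1-/- samples under all 13 alternatives run, and none had an adjusted p under 0.05 in limma under any. For many of these alternatives the direction could not change. The intensity trend, the replicate block, the stricter filter and no filter left each of these differences as reported. Leaving out an array cannot turn a gene whose groups do not overlap. No background correction and the authors' normalized values gave nearly the same differences and are not separate checks. The lowest adjusted p among them was 0.067, for Slc2a2 without Ifnar1-/- array 2. With an array left out, in which case the single array of a group is assumed to vary like the other group, the differences ran from -1.07 to -0.51 for Sis, from -0.90 to -0.48 for Slc5a1, from -1.30 to -0.44 for Slc2a2, from -0.97 to -0.53 for Khk and from -1.35 to -0.02 for Treh. G6pc ran from -0.75 to 1.02 and turned direction without Ifnar1-/- array 2 (-0.75) and without Ifnar1+/+ array 2 (-0.32). Sugar genes lower at an unadjusted p under 0.05 numbered 0 to 5 with an array left out and 2 with median scaling, against 4 as reported. Over all genes, those passing at an adjusted p under 0.05 numbered 0 to 3 higher and 0 to 11 lower with an array left out, and 0 under the other alternatives. At an unadjusted p under 0.05 there were 102 to 1123 higher and 214 to 1126 lower with an array left out, and 659 higher with no filter on dim probes, where 16593 genes were tested. Median scaling placed the median of all genes at 0.11, against 0.03 as reported. The labels give no sign that equal replicate numbers mark shared animals, and deviations of same-numbered arrays correlated at -0.05 over genes. With the replicate number as a block, the difference of Sis stayed at -0.79 (adjusted p = 0.50 in limma), and 4 sugar genes were lower at an unadjusted p under 0.05. Over all genes, 434 were lower and 340 higher at that p in limma, against 445 and 359 as reported. The offset and the detection filter limit what can be seen of dim probes such as that of Slc2a5.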
